A study of Rattus norvegicus with 141 samples.

Results

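The 48 stomach libraries of this rat series were ranked by the share of their counts that came from keratin genes of the forestomach lining, and the 12 with the highest share (keratin-rich) were set against the 12 with the lowest (keratin-poor). These are 24 of 48 stomach libraries and 24 of 141 libraries in all; the other 24 stomach libraries are called the middle libraries. The ranking was to rest on Krt5, Krt13 and Krt14. Krt14 was not analysed here, so the share is Krt5 plus Krt13 divided by the library's total. Adult wild-type rats of the Sprague-Dawley strain, male and female, had received microplastics at 50 mg/kg or 5 mg/kg, or vehicle, and polyadenylated RNA of stomach, duodenum and liver was sequenced. Each of the 6 groups of sex and dose had 8 stomach libraries, spread over 3 batches of 16, 24 and 8. Several frozen pieces of each stomach were ground together, and neither the region of the stomach nor the animal behind a library is given, and the p-values reflect variation among libraries that may be technical.

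The rat stomach has a forestomach lined by stratified squamous epithelium, like the oesophagus, and a glandular part that makes acid, pepsinogen and mucus. In the squamous lining, basal cells that carry Krt5 and the transcription factor Tp63 divide and move upward. The cells then switch to keratins of the upper layers, tie themselves together with desmosomes and end in a cornified envelope of cross-linked protein. Krt13 is a keratin of upper layers in internal squamous linings. In RNA from a whole piece, fewer cells of a type and less RNA per cell cannot be told apart.

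The keratin share was lowest at 0.141%, had a median of 0.168% and reached 0.301% of counts in the keratin-rich libraries, against 0.0253%, 0.0720% and 0.0863% in the keratin-poor libraries. The middle libraries lay between 0.0876% and 0.130%. These values chose the groups and are a description. The last library inside the upper cut was male 50 mg/kg replicate 3 at 0.141%, and the first outside it was female vehicle replicate 1 at 0.130%. At the lower cut, female 5 mg/kg replicate 8 at 0.0863% was inside and male 50 mg/kg replicate 5 at 0.0876% was outside, so this boundary separated nearly equal shares. Outside the stomach the same share was at most 0.000232% in 47 duodenum libraries and at most 6.17e-05% in 46 liver libraries.

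Whether the label of forestomach content holds was checked on other squamous markers, the basal, suprabasal and cornified genes without Krt5 and Krt13. Their summed share was 1.74% to 4.12% of counts (median 2.44%) in keratin-rich libraries and 0.598% to 2.08% (median 1.09%) in keratin-poor ones, so the groups overlapped. A ranking by these markers kept 8 of the 12 keratin-rich and 8 of the 12 keratin-poor libraries. Ranking by Krt13 alone kept 12 and 10, and ranking by Krt5 alone kept 8 and 7. Male 50 mg/kg replicate 6 was keratin-poor at 0.0748% and yet had 2.06% of its counts in the other squamous markers. The medians thus differed in the labelled direction while single libraries went against it, and the groups are named here by their keratins. Total counts ran from 6500508 to 23940175 in keratin-rich libraries and from 4947825 to 21062388 in keratin-poor ones, and a two-sided permutation test of the difference gave p = 0.898 (log2 difference -0.03).

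**Figure D1:**
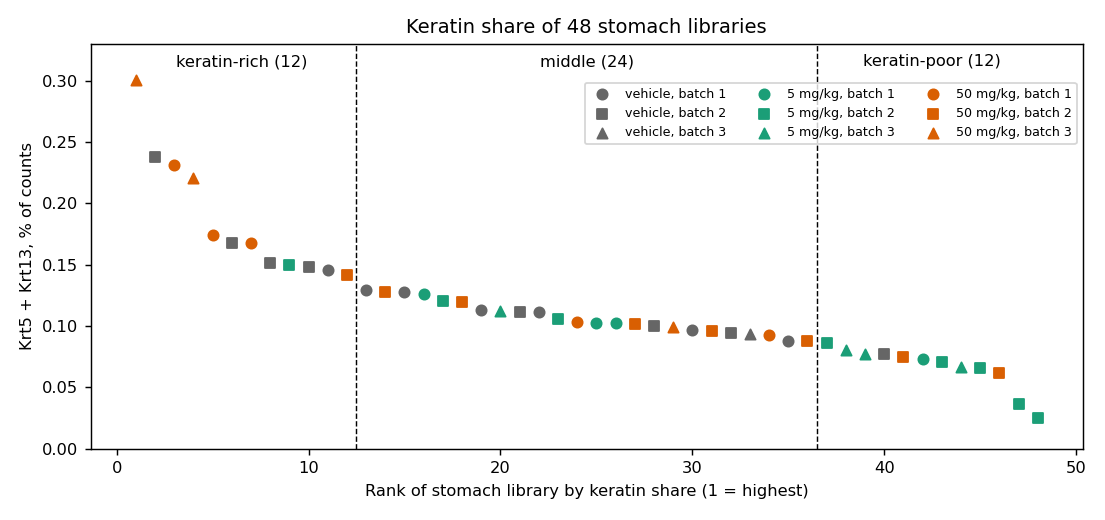
Share of counts from Krt5 and Krt13 (y axis, percent) in the 48 stomach libraries by rank (x axis), coloured by dose and shaped by batch, with dashed lines at the cuts between 12 keratin-rich, 24 middle and 12 keratin-poor libraries. Of the 12 keratin-poor libraries 9 had received 5 mg/kg, against 1 of the 12 keratin-rich ones.

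The 250 bases before the annotated start (RefSeq, GRCr8) are printed for 4 squamous genes: Krt5, which entered the share, Tmprss11b, a squamous serine protease whose groups did not overlap, Krt4, a keratin of internal squamous linings, and Sprr1a, a cornified envelope precursor. Capitals mark matches on either strand to 4 motifs, with no overlap between motifs in the sequences shown. The AP-1 motif was searched as TGANTCA, the TATA box as TATAAA, the GATA motif as AGATAA, and the CACCC box as CCACCC.
Krt5, chr7:134730570-134730819, minus strand: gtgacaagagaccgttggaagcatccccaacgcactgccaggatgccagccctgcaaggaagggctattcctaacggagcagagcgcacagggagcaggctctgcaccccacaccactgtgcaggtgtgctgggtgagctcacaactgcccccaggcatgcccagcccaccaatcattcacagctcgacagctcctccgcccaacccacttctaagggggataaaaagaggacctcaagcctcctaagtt
Tmprss11b, chr14:21738510-21738759, plus strand: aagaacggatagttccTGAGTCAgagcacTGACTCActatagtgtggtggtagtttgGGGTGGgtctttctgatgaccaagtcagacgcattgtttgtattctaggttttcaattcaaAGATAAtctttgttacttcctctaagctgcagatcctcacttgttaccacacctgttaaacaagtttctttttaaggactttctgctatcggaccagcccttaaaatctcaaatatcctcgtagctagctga
Krt4, chr7:134930714-134930963, minus strand: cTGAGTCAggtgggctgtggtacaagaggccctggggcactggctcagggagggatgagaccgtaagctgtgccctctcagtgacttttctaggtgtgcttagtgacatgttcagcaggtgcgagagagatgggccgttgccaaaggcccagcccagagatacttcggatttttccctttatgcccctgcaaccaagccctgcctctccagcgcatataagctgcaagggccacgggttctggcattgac
Sprr1a, chr2:180752626-180752875, minus strand: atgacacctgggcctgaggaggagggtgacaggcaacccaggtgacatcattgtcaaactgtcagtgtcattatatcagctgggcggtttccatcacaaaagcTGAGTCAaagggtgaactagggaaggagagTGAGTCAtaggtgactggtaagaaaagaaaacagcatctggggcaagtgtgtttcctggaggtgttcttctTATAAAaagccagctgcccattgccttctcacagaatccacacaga
Tmprss11b and Sprr1a held 2 AP-1 matches each, Krt4 held 1 and Krt5 held none. Of 100 measured genes of the squamous lists 73 had a promoter entry, and 14 of these (19.2%) held an AP-1 match, against 1747 of 27457 promoters in all (6.36%). A CACCC match was in 34 of the 73 (46.6%), against 26.6% of all promoters, and a TATA match was in 15 (20.5%), against 13.1%. A GATA match was in 13 of the 73 (17.8%), against 10.1% of all promoters. Of 26 glandular genes with an entry, 1 (3.85%) held an AP-1 match, 7 (26.9%) a CACCC match, 6 (23.1%) a TATA match and 4 (15.4%) a GATA match. A match is a description of letters and not of a bound site.

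In 7 of 15140 genes tested (0.0462%) every keratin-rich library lay above every keratin-poor one, and in 0 genes (0%) every one lay below. Ratios are log2 ratios of keratin-rich over keratin-poor from a model that also held sex with dose and batch, and levels are counts scaled to library size (CPM) with TMM factors; summed levels of a list are CPM of the raw total, over all its genes with a row. Since the groups were chosen on these libraries, no test was made of these ratios. Among the 7 genes were the 2 keratins that chose the libraries: Krt13 was 1217 to 2397 CPM (median 1362) in keratin-rich and 194 to 715 CPM (median 616) in keratin-poor libraries, and Krt5 was 218 to 373 CPM (median 282) and 51.8 to 197 CPM (median 114). Their log2 ratios were 1.36 ± 0.16 and 1.17 ± 0.19 (SE).

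Tmprss11b was lowest at 7.10 CPM, had a median of 10.8 and reached 16.5 CPM in keratin-rich libraries, against 1.77, 3.93 and 7.06 CPM in keratin-poor libraries, a log2 ratio of 1.41 ± 0.22. The groups just touched without crossing. Gsdmc, a gasdermin, a family of pore-forming proteins, was 7.73 to 18.9 CPM (median 9.67) in keratin-rich and 1.55 to 7.50 CPM (median 4.92) in keratin-poor libraries (1.20 ± 0.22). Pard6g, a component of the cell polarity complex, was 16.7 to 29.5 CPM against 8.17 to 14.6 CPM (0.85 ± 0.14). Sh3rf2, a scaffold protein with SH3 domains, was 17.2 to 27.5 CPM against 6.15 to 17.0 CPM (0.71 ± 0.17). Atp6v0a4, a subunit of the proton-pumping V-type ATPase, was the seventh and was low, at 3.20 to 9.75 CPM against 0 to 2.75 CPM (1.17 ± 0.56); it is outside the naming rule and was chosen after its values were seen. Leaving out male 50 mg/kg replicate 6 moved the count to 32 genes. Ranking by the other squamous markers gave 296 genes higher and 2 lower.

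**Figure D2:**
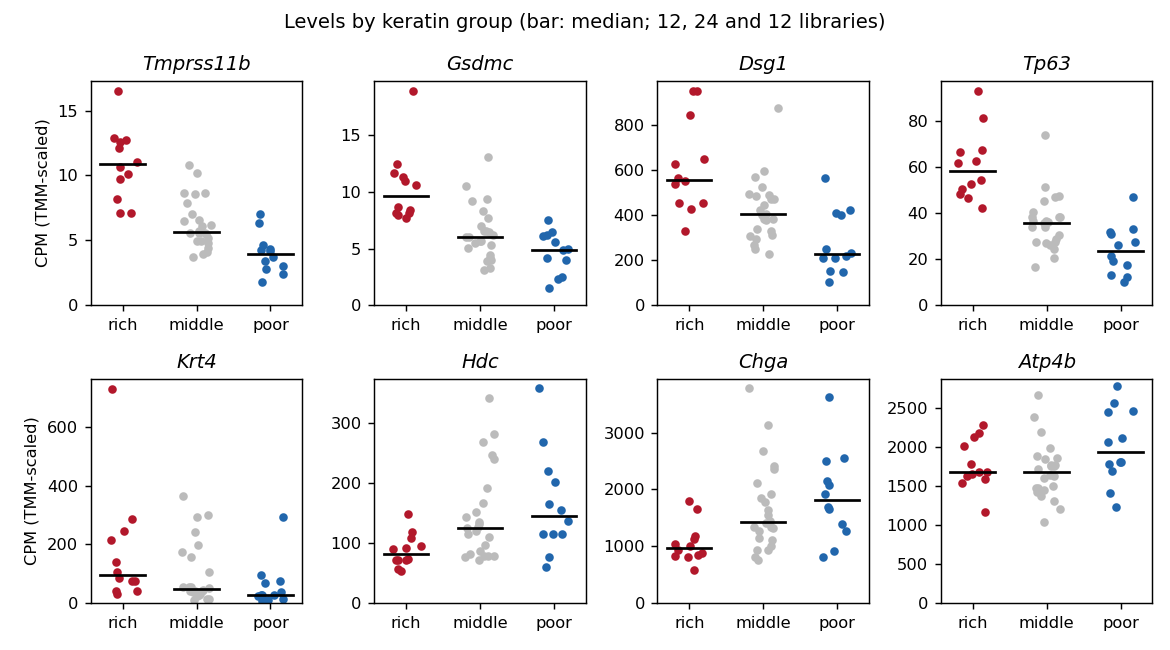
CPM scaled by TMM (y axes, starting at 0) of 8 genes in the 12 keratin-rich, 24 middle and 12 keratin-poor libraries, with a bar at each median. Tmprss11b and Gsdmc separate the outer groups, Dsg1, Tp63 and Krt4 overlap between them, and Hdc, Chga and Atp4b have lower medians in keratin-rich libraries.

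Ratios of 1.5-fold or more were found for 664 genes higher (4.39%) and 428 genes lower (2.83%) in keratin-rich libraries, and the median log2 ratio over all 15140 genes was -0.01. Against this background the cornified envelope list stood at 24 of 24 measured members at least 1.5-fold higher, with a median of 1.14. Rptn, which encodes the envelope protein repetin, was 393 to 930 CPM (median 681) in keratin-rich and 109 to 468 CPM (median 287) in keratin-poor libraries (1.44 ± 0.24). Krt1 was 4485 to 13025 CPM (median 7013) against 1251 to 5939 CPM (median 2682), a ratio of 1.32 ± 0.27, and its partner Krt10 gave 1.22 ± 0.30. Both are keratins of the upper layers of cornifying epithelium. Tgm3, a transglutaminase that cross-links the envelope, was 30.6 to 88.4 CPM against 12.4 to 48.3 CPM (1.35 ± 0.25). Members of the envelope itself gave like ratios, with involucrin (Ivl) at 1.04 ± 0.35, loricrin (Loricrin) at 1.01 ± 0.27 and Sprr1a at 1.12 ± 0.22. For each of these genes the lowest keratin-rich library lay below the highest keratin-poor one.

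Of 18 measured suprabasal genes besides Krt13, 17 were at least 1.5-fold higher in keratin-rich libraries, with a median log2 ratio of 1.19. Krt76 had the largest ratio, 2.38 ± 0.50, at a low level of 1.27 to 38.2 CPM against 0.409 to 4.05 CPM. Krt4 followed at 1.95 ± 0.61, with 29.7 to 729 CPM (median 95.5) in keratin-rich and 5.64 to 292 CPM (median 27.9) in keratin-poor libraries. Its range within each group was wide, and the group ranges overlapped. The desmosomal cadherins Dsg1 (1.26 ± 0.26), Dsg3 (1.33 ± 0.25) and Dsc3 (1.36 ± 0.23) were all higher in keratin-rich libraries. Dsc2, a cadherin that simple epithelia also use, gave 0.12 ± 0.14, with 37.7 to 116 CPM against 44.1 to 85.4 CPM. The plaque protein Pkp1 gave 1.27 ± 0.22, while desmoplakin (Dsp), found in desmosomes of all epithelia and of heart muscle, gave 0.73 ± 0.17.

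The basal layer list split. Of 12 measured members besides Krt5, 5 were at least 1.5-fold higher. These were Krt17 (1.71 ± 0.38), a keratin of activated and basal cells, Trim29 (1.39 ± 0.22), Col17a1 (1.35 ± 0.24), the hemidesmosomal collagen, Tp63 (1.35 ± 0.23) and Sfn (1.23 ± 0.21), the 14-3-3 sigma protein. Tp63 was 42.2 to 92.9 CPM (median 58.0) in keratin-rich and 9.95 to 46.7 CPM (median 23.7) in keratin-poor libraries. Unlike Col17a1, the basement membrane attachment genes Itga6 (-0.05 ± 0.08), Itgb4 (0.04 ± 0.13), Lama3 (0.04 ± 0.19) and Dst (0.10 ± 0.14) lay near 0. Itga6, an integrin that glandular and vascular cells also carry, was 101 to 148 CPM against 104 to 151 CPM.

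Of 15 squamous transcription factors 10 were at least 1.5-fold higher, with a median of 1.04. Besides Tp63 these included Tfap2a (1.26 ± 0.24), Grhl3 (1.15 ± 0.23), which drives barrier formation in skin, and Barx2 (1.08 ± 0.20). Grhl3 was 17.8 to 39.7 CPM in keratin-rich and 4.91 to 24.3 CPM in keratin-poor libraries. Pitx1 was at 0.62 ± 0.13. Factors that the glandular epithelium also uses gave small ratios, with Klf4 at 0.11 ± 0.11 and Sox2 at 0.36 ± 0.10.

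Barrier lipid genes were at least 1.5-fold higher for 11 of 16 members, with a median of 0.98. Alox12b, a lipoxygenase that acts on ceramides of the cornified barrier, was 19.6 to 42.7 CPM (median 30.5) in keratin-rich and 6.08 to 24.1 CPM (median 11.2) in keratin-poor libraries (1.28 ± 0.20). The lipid transporter Abca12 gave 1.15 ± 0.29. Ugcg, the glucosylceramide synthase found in most cells, gave 0.35 ± 0.11.

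Protease inhibitors of squamous epithelium were at least 1.5-fold higher for 11 of 14 members, with a median of 0.84. Serpinb12 was 129 to 317 CPM against 33.5 to 193 CPM (1.25 ± 0.22), and Spink5, an inhibitor of skin kallikreins, was 266 to 870 CPM against 85.8 to 456 CPM (1.03 ± 0.26). Stfa3, a stefin, had 156 to 677 CPM in keratin-rich and 52.4 to 841 CPM in keratin-poor libraries (0.36 ± 0.28), so its highest value was in a keratin-poor library. In the list of antimicrobial and IL-1 family genes 8 of 12 were at least 1.5-fold higher, with a median of 0.80. Among these Il36b gave 1.06 ± 0.27, Pglyrp3 gave 1.13 ± 0.26 and Il36rn gave 0.92 ± 0.27. The defensin Defb1 gave 0.35 ± 0.33, with 2.50 to 21.1 CPM against 1.78 to 26.2 CPM.

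**Figure D3:**
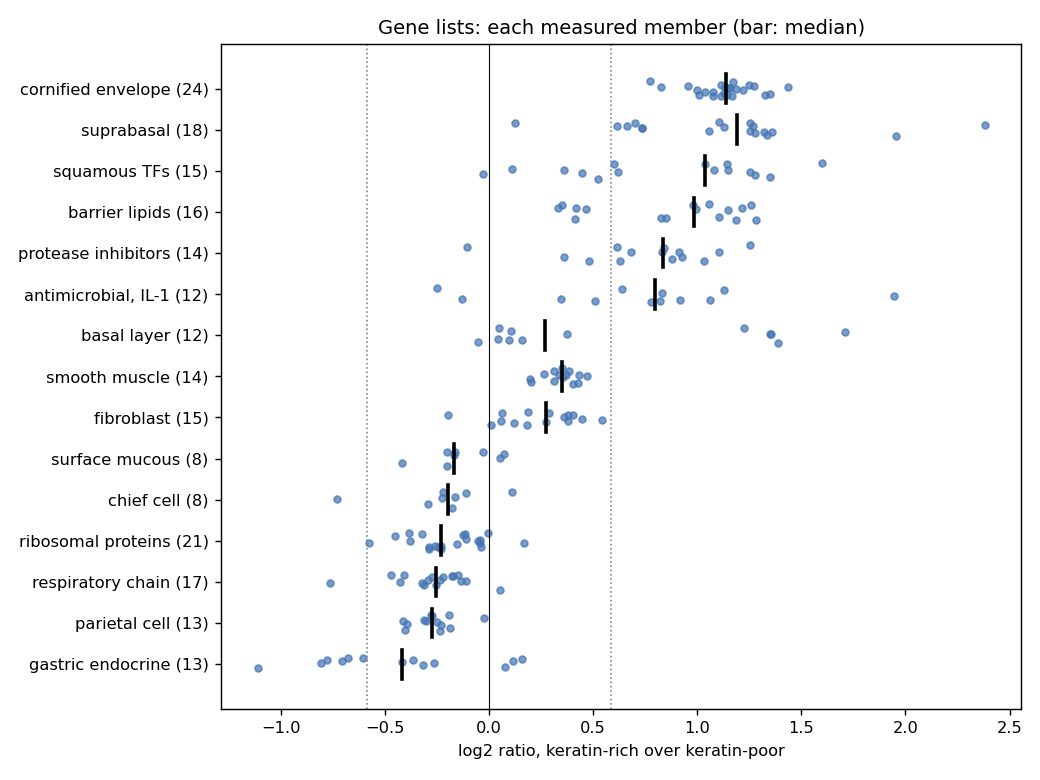
Log2 ratio of keratin-rich over keratin-poor libraries (x axis) for each measured member of 15 gene lists (y axis, number of members in brackets, Krt5 and Krt13 left out), with a bar at each median and dotted lines at 1.5-fold. The squamous lists except the basal one have medians of 0.80 to 1.19, and the gastric endocrine list has the lowest median, -0.42.

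Genes of the glandular stomach differed less than the squamous genes. All 13 parietal cell genes had ratios below 0, none reached 1.5-fold, and their median was -0.27. Atp4b, the beta subunit of the acid pump, was 1164 to 2278 CPM (median 1678) in keratin-rich and 1233 to 2785 CPM (median 1930) in keratin-poor libraries (-0.19 ± 0.15). Kcnq1, the potassium channel that acid secretion needs, gave -0.42 ± 0.13. Chief cell genes had a median of -0.20 over 8 members, and Pgc, which encodes pepsinogen C, gave -0.18 ± 0.23. The summed chief cell level went the other way, with medians of 89206 CPM in keratin-rich and 81388 CPM in keratin-poor libraries. Surface mucous genes had a median of -0.17 over 8 members, with Muc5ac, the main surface mucin, at 0.05 ± 0.21 and Gkn1, a gastrokine, at -0.42 ± 0.21.

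The gastric endocrine list stood lower, with 6 of 13 members at least 1.5-fold lower in keratin-rich libraries and a median of -0.42. Hdc, which makes histamine in enterochromaffin-like cells, was 53.1 to 148 CPM (median 81.0) in keratin-rich and 59.9 to 359 CPM (median 146) in keratin-poor libraries (-1.11 ± 0.28). Hdc is also on the mast cell list, whose 7 measured members had a median of -0.23, with 2 above 0. The summed level of that list, Hdc included, had medians of 126 CPM in keratin-rich and 225 CPM in keratin-poor libraries. Chga, the granule protein chromogranin A, was 577 to 1803 CPM (median 964) against 808 to 3629 CPM (median 1805), a ratio of -0.81 ± 0.25. Chgb gave -0.78 ± 0.24 and the amine transporter Slc18a2 gave -0.68 ± 0.21. The hormone genes Ghrl (-0.42 ± 0.17) and Sst (-0.26 ± 0.17) had smaller ratios, and Gast, found in the antrum, varied from 0.240 to 165 CPM against 1.05 to 443 CPM. The groups overlapped for each of these genes.

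Over all genes the quartiles of the log2 ratio were -0.15 and 0.12. Smooth muscle genes had ratios above 0 for 14 of 14 members and a median of 0.35, with none at 1.5-fold. Myh11, the smooth muscle myosin, was 4767 to 13297 CPM in keratin-rich and 3239 to 8517 CPM in keratin-poor libraries (0.47 ± 0.16). Yet the summed smooth muscle level had close medians, 23944 CPM in keratin-rich, 25306 CPM in middle and 22961 CPM in keratin-poor libraries. Fibroblast genes had ratios above 0 for 14 of 15 members, with a median of 0.27. Their summed level had medians of 8623 CPM in keratin-rich and 8567 CPM in keratin-poor libraries. Cytosolic ribosomal protein genes had ratios below 0 for 20 of 21 members, with a median of -0.23, and nuclear respiratory chain genes for 16 of 17, with a median of -0.26. The summed ribosomal protein level was 7635 to 18367 CPM (median 8597) in keratin-rich and 7222 to 18497 CPM (median 10852) in keratin-poor libraries. The 2 groups thus spanned nearly the same range. Markers of other tissue moved with single libraries. The summed striated muscle genes were 51.0 to 3567 CPM in keratin-rich and 47.0 to 1306 CPM in keratin-poor libraries, highest in male vehicle replicate 2 of the keratin-rich group. Pancreatic acinar genes had a median ratio of -1.64, with 10 of 11 at least 1.5-fold lower, but their summed level was 1357 to 3257 CPM against 1878 to 4606 CPM, and Prss1 (trypsinogen) was 0 to 4.29 CPM against 0 to 558 CPM with medians of 0.0639 and 0.209 CPM. Their part in the other ratios was not tested.

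The 24 middle libraries did not enter the choice of the outer groups, so the relation to the share was tested in them, as a slope per doubling of the share in edgeR's quasi-likelihood model. At an adjusted p under 0.05, 7 of 15138 genes (0.0462%) were called, 6 with a positive and 1 with a negative slope, and 1260 genes had an unadjusted p under 0.05. None of the measured squamous genes was among the 7. Dsg1 had a slope of -0.04 ± 0.49, Krt1 of 0.19 ± 0.55, Tp63 of 0.17 ± 0.49 and Tmprss11b of 0.07 ± 0.62 on the log2 scale, whereas a gene in proportion to the share would have a slope of 1. Krt4 had the largest squamous slope, 4.46 ± 1.41 (unadjusted p = 0.0049), and was not called. In the middle libraries slopes were above 0 for 9 of 24 cornified (median -0.09), 6 of 16 barrier lipid (-0.12) and 3 of 14 protease inhibitor genes (-0.32). The same held for 3 of 12 antimicrobial and IL-1 genes (-0.40) and 2 of 14 smooth muscle genes (-0.36). Slopes were above 0 for 10 of 18 suprabasal genes (0.09), 12 of 15 squamous transcription factors (0.22) and 9 of 12 basal genes (0.29). Over all 15138 genes the median slope was 0.01, with quartiles of -0.27 and 0.24. The medians of the cornified, barrier lipid, suprabasal and transcription factor lists lay within these quartiles. The share in these libraries spanned only 0.0876% to 0.130%, and on simulated data at this size 32 of 100 genes with a 2-fold change per doubling were recovered, so the test bears on large slopes only.

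Of the 7 called genes, 3 are known only by provisional names, among them the 1 with a negative slope and the pair with the smallest p. The 4 others were Tbx15, a transcription factor of limb and muscle development (adjusted p = 0.0074 by edgeR), Cacna1s, the calcium channel of skeletal muscle, Lmod2, an actin nucleator of striated muscle, and Myot, a protein of the Z disc. The last 3 are genes of striated muscle, all positive, and all were under 1 CPM in the median of both outer groups. Summed striated muscle genes stood at 3255 CPM in female vehicle replicate 3 and at 2081 CPM in male vehicle replicate 3, both middle libraries. Without these libraries, taken out singly, 3 and 2 genes were called. Leaving out each middle library in turn gave 1 to 25 genes, and a model with no batch term gave 0. The count was 25 without male vehicle replicate 7 or female 50 mg/kg replicate 3, 18 without female vehicle replicate 1 and 11 without male 50 mg/kg replicate 5. It was 3 without female vehicle replicate 2 or 4 or female 50 mg/kg replicate 5, 2 without male vehicle replicate 1, and 1 without male vehicle replicate 4, female vehicle replicate 5 or female 5 mg/kg replicate 2.

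Of dose, sex and batch, dose was the only label to pass an exact test between the groups, and each test ignored the other labels. The keratin-rich libraries held 6 of 50 mg/kg, 1 of 5 mg/kg and 5 of vehicle, and the keratin-poor libraries held 2, 9 and 1 (exact Fisher-Freeman-Halton test, two-sided, p = 0.0039, adjusted over 3 labels 0.0118). Ranked by the other squamous markers, the groups held 7, 1 and 4 against 1, 6 and 5 (exact p = 0.0197, adjusted 0.0591). By sex there were 7 females and 5 males against 3 females and 9 males (exact p = 0.214), and by batch 4, 6 and 2 against 1, 8 and 3 libraries of batches 1, 2 and 3 (exact p = 0.524). Ranked by the share scaled by TMM, the groups held 7 females and 5 males against 2 and 10 (exact test, p = 0.0894). Of the libraries given 5 mg/kg, 1 of 4 in batch 1, 5 of 8 in batch 2 and 3 of 4 in batch 3 were keratin-poor. By sex, 6 of 8 males and 3 of 8 females given 5 mg/kg were keratin-poor, and 0 and 1 were keratin-rich. The homogenizer was taken apart for cleaning between treatments and only rinsed within one, per the labels' protocols, so handling by treatment and dose cannot be told apart.

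Over all 48 libraries the share averaged 0.125% ± 0.0398 with vehicle, 0.0876% ± 0.0326 at 5 mg/kg and 0.138% ± 0.0657 at 50 mg/kg (SD, n = 16 each). The ranges overlapped, from 0.0770% to 0.237%, 0.0253% to 0.150% and 0.0618% to 0.301%. Libraries at 5 mg/kg lay lower than vehicle libraries by a log2 difference of -0.56 (two-sided permutation test within batch and sex, p = 0.0104, adjusted over 5 tests 0.0261). Within batches 1, 2 and 3 this difference was -0.19, -0.84 and -0.25, and was largest in batch 2. The permutation p was 0.265, 0.0326 and 0.332, the last over 3 libraries. These 3 libraries can give no p much below 0.332, so the batch 3 test could not pass the threshold and decides nothing. Without batch 3 the difference was -0.59 (adjusted permutation p = 0.0752), and for the other squamous markers it was -0.27 (0.509). Leaving out each library in turn gave -0.63 to -0.44, with an adjusted permutation p of 0.0060 to 0.0590; without female vehicle replicate 8, male vehicle replicate 2, male vehicle replicate 6, male 5 mg/kg replicate 5 or female 5 mg/kg replicate 3 it missed the threshold.

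Libraries at 50 mg/kg lay above those at 5 mg/kg by 0.64 (permutation p = 0.0051, adjusted 0.0255). Within batches 1, 2 and 3 this difference was 0.55, 0.45 and 1.22. The permutation p was 0.132, 0.17 and 0.0558, the last over 7 libraries. These 7 libraries can give no p much below 0.0558, so the batch 3 test could not pass the threshold and decides nothing. Leaving out each library in turn from all batches gave a difference of 0.55 to 0.73. Without batch 3 the difference was 0.49 (adjusted permutation p = 0.102). Between 50 mg/kg and vehicle the difference was 0.00 (permutation p = 0.979), with 0.34, -0.39 and 0.88 within batches 1, 2 and 3 (permutation p = 0.197, 0.125 and 0.667, the last over 3 libraries). Females lay above males by 0.31 (permutation p = 0.056, adjusted 0.0933), and batch 2 lay below batch 1 by -0.24 (permutation p = 0.185). The dose differences between females and males did not pass a permutation test of their difference (p = 0.823 for 50 mg/kg and 0.462 for 5 mg/kg, each against vehicle).

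**Figure D4:**
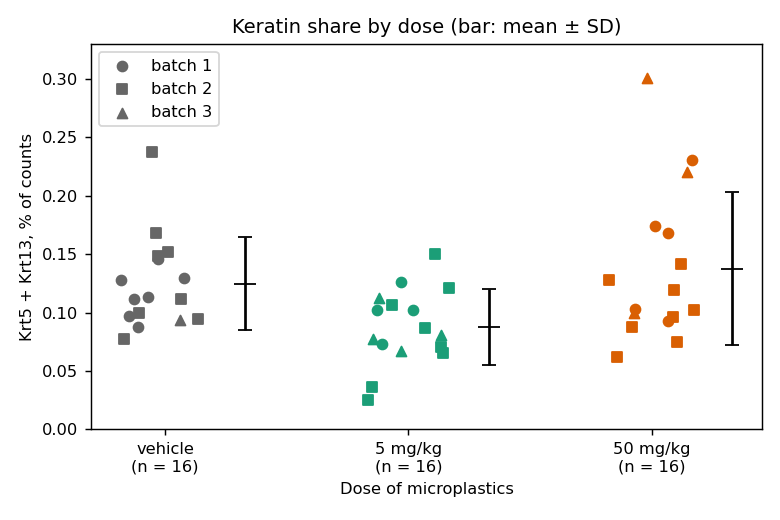
Share of counts from Krt5 and Krt13 (y axis, percent) in stomach libraries given vehicle, 5 or 50 mg/kg (x axis, 16 each), with marker shape by batch and bars for mean ± SD. The means are 0.125%, 0.0876% and 0.138%, and the ranges overlap.

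The dose contrasts were fitted with and without the keratin share as a covariate, in edgeR's quasi-likelihood model over all 48 libraries. Between 50 and 5 mg/kg, 107 genes were called without the share, 93 higher (0.614%) and 14 lower (0.0925%), and 0 with it, when 2045 genes had an unadjusted p under 0.05 and the smallest adjusted p was 0.0938. Without the 8 libraries of batch 3, 0 genes were called with the share and 0 without it. That fit also held fewer libraries, and what the loss of the 107 calls goes with was not tested. DESeq2 with the share called 262. With the other squamous markers as the covariate 758 were called, and leaving out 1 library gave up to 364 (without male 50 mg/kg replicate 7), so the count of 0 depended on the setting. Leaving out male 50 mg/kg replicate 8, female 50 mg/kg replicate 5, female 5 mg/kg replicate 1 or female 5 mg/kg replicate 7 gave 297, 350, 311 and 2 genes.

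Squamous genes were part of the difference between 50 and 5 mg/kg in the model without the share. Of 14 protease inhibitors 8 rose, and of 12 antimicrobial and IL-1 genes 5 rose. Of 24 cornified genes 6 rose and of 18 suprabasal genes 4 rose, against 93 of all 15140 genes (0.614%). With the share 0 of all 15140 genes were called, so the loss of calls was not particular to these lists. In the fit without batch 3, over fewer libraries, 0 of all genes were called in the model without the share. The median log2 difference of the cornified list was 0.69 without and 0.22 with the share, that of the suprabasal list 0.54 and 0.03, that of the protease inhibitors 0.75 and 0.37 and that of the antimicrobial list 0.78 and 0.44. Over all genes the median was -0.01 in both models. Krt1 gave a log2 difference of 0.04 with the share and 0.58 without it, neither past the threshold. Stfa3, at 1.18 without the share (adjusted p = 0.0052 by edgeR), stood at 1.00 with it (adjusted p = 0.0938), and Defb1 stood at 1.05 with and 1.26 without the share. Fam25a, a gene of cornifying epithelium, was at 0.86 with and 1.18 without the share. The covariate is itself made of squamous transcripts, and since the share differed between these doses, what goes with dose and what goes with the share cannot be told apart.

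**Figure D5:**
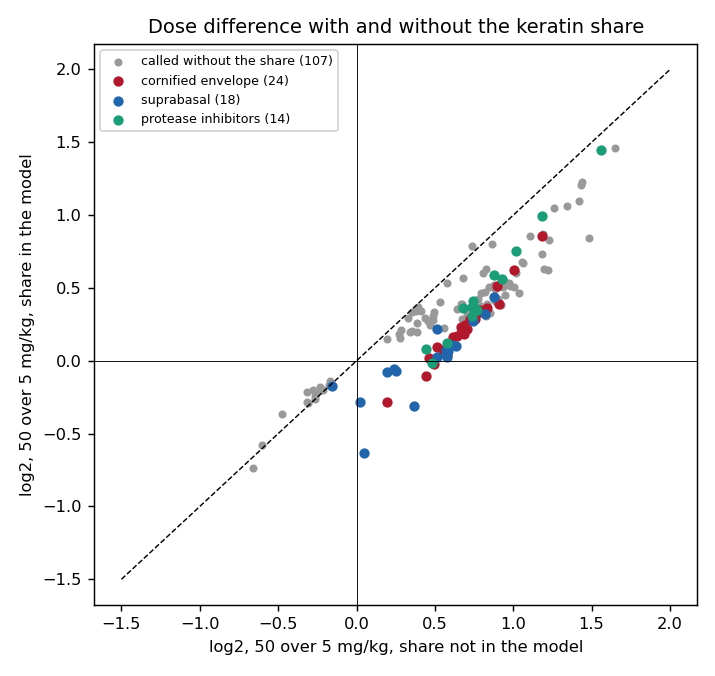
Log2 difference of 50 over 5 mg/kg without (x axis) and with (y axis) the keratin share in the model, for 107 genes called without it (grey) and for measured members of 3 squamous lists (coloured); the dashed line marks equal values. The cornified and suprabasal genes lie well below the line, with list medians of 0.22 and 0.03 with the share.

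Between 50 mg/kg and vehicle, where the share itself had a mean difference of 0.00, 680 genes were called without the share, 401 higher (2.65%) and 279 lower (1.84%). With the share 1128 were called, 711 higher (4.7%) and 417 lower (2.75%), and all 680 were among them. Of 21 measured cytosolic ribosomal protein genes, 18 were called higher without the share and 20 with it, and 0 lower. Their median log2 difference was 0.46 and 0.49. Their summed level varied widely, from 6507 to 16427 CPM in the middle libraries alone. Whether the counts of calls below follow the libraries high in these genes was not tested. Ribosomal protein genes were left out of the naming by smallest p. The genes with the smallest p were Rbm3, a cold-induced RNA-binding protein (0.46 ± 0.08), Rgs10, a regulator of G protein signalling (0.75 ± 0.13), and the defensin Defb14 (1.60 ± 0.28), each with an adjusted p of 0.0056 by edgeR. They were followed by Mecom, a transcription factor (-0.34 ± 0.06), and Nsa2, a ribosome assembly factor (0.36 ± 0.07). Leaving out a library gave 385 genes (without male 50 mg/kg replicate 4) to 1906 (without female vehicle replicate 2), batch 1 alone gave 3 and batch 2 alone gave 0. The count was 668 and 518 without male vehicle replicates 2 and 4, and 737, 547 and 620 without female vehicle replicates 4, 6 and 8. It was 680, 582, 730 and 1731 without male 50 mg/kg replicates 2, 3, 6 and 7, and 724, 549 and 681 without female 50 mg/kg replicates 2, 3 and 7. Between 5 mg/kg and vehicle 0 genes were called in either model, with 909 at an unadjusted p under 0.05 without and 783 with the share; DESeq2 with the share called 4.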

How the data were processed

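Polyadenylated RNA of 48 stomach libraries was described, with 46 liver and 47 duodenum libraries for background. The authors deposited estimated counts per gene, made per the submitters' processing notes with tools that include STAR 2.7.11b, Salmon 1.10.3, UMI-tools 1.1.5 and cutadapt 4.9 on the build mRatBN7.2; the sources used here do not give their settings. Estimated counts can split reads among similar keratin genes. They were rounded to whole numbers. filterByExpr (minimum count 10, minimum total 15) kept 15140 genes; sizes were scaled by TMM, and edgeR 4.0.16 (R 4.3.3) fitted quasi-likelihood models with Benjamini-Hochberg adjustment. Krt14 was named in the rule and not analysed here. The libraries and gene lists were chosen with earlier results of these data known. Genes were named where the 12 and 12 libraries did not overlap at a mean of 5 CPM or more, or as list members with large ratios (squamous lists freely), or from an earlier list of dose genes or by smallest p. On simulated data for 50 mg/kg against vehicle with the share (15140 genes), the test found 91 of 100 genes changed 1.5-fold and 97 of 100 changed 2-fold, with 10 false among 198 calls. Permutation tests used 100000 resamples, and 10000 for sex by dose. DESeq2 was 1.42.0; figures used matplotlib under Python. No pair of libraries correlated above 0.982 in log2 CPM.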

Additional observations from a re-analysis of the deposited data

Results flagged for a closer look

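In groups of 8 libraries of 1 sex and dose, 18 sets of values were examined for a single library far from the rest, and 5 held one; chance gives about 1 in 20. Female vehicle replicate 8 had a keratin share of 0.237%, with the next library at 0.148%. The share of the other squamous markers was 3.95% in female 50 mg/kg replicate 1, with the next at 2.44%, and 4.12% in male vehicle replicate 6, with the next at 2.42%; these 3 libraries are all keratin-rich. Total counts stood apart in female 50 mg/kg replicate 1 (23940200, keratin-rich) and in female 5 mg/kg replicate 4 (21062400, keratin-poor), both of batch 3.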

How the results depend on the processing

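Genes with all keratin-rich above all keratin-poor libraries numbered 7, against 296 ranked by other squamous markers, 3118 within batch 1 (where 1 library was keratin-poor) and 37 within batch 2; genes with all below numbered 0, against 2, 3240 and 10. Leaving out 1 library gave 7 to 32 above and 0 to 0 below. Slopes in the middle libraries gave 7 calls, against 11 with no filter, 62 with the replicate block, 0 with no batch term, 0 with the slope only and 30 with the share scaled by TMM; leaving out 1 gave 1 to 25. With the share, 50 mg/kg against vehicle gave 1128 calls, against 180 with no batch term, 2118 with other squamous markers, 3 within batch 1, 0 within batch 2, 680 without the share and 729 without batch 3 and share (chosen after seeing the data); leaving out 1 gave 385 to 1906. For 5 mg/kg against vehicle 0 calls became 1 with the replicate block and 4 with DESeq2 (0 to 1 leaving out 1), and for 50 against 5 mg/kg 0 became 758 with other squamous markers, 107 without the share (0 without batch 3 and share) and 262 with DESeq2 (0 to 364). The share difference of 50 mg/kg minus vehicle was -0.016 for Krt13 alone, -0.39 within batch 2 and -0.079 without batch 3 (-0.092 to 0.080 leaving out 1). That of 5 mg/kg minus vehicle was -0.50 for Krt5 alone, -0.27 for other squamous markers, -0.19 and -0.84 within batches 1 and 2 and -0.59 without batch 3, none past the threshold (-0.63 to -0.44). That of 50 minus 5 mg/kg was 0.56 for other squamous markers, 0.55 and 0.45 within batches and 0.49 without batch 3, none past it (0.55 to 0.73). Females minus males gave 0.24 to 0.37 and batch 2 minus batch 1 gave -0.30 to -0.15. The dose make-up gave exact p = 0.0197 by other squamous markers. The cause of these shifts was not tested. Log2 ratios of named genes stayed within 1 SD of the libraries in 2493 repeats and moved further in 57, with no sign change of a gene whose groups did not overlap.

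Same-numbered libraries of different groups had a median correlation of deviations of 0.01 (37 of 120 pairs over 0.1), against -0.01 in 840 other pairs. The numbers were therefore not used as pairs in the main models, though medians cannot exclude pairing in part of the libraries. With the replicate block, calls for 50 mg/kg against vehicle with the share were 1455. Low depth limits genes of a few CPM, and the narrow share of the middle libraries limits slopes.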

Other observations

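Some genes outside the squamous and glandular lists also differed in level, and they were chosen after their values were seen. Cxcr2, a chemokine receptor known from neutrophils, was 6.66 to 18.6 CPM in keratin-rich and 3.14 to 12.03 CPM in keratin-poor libraries, a log2 ratio of 1.25 ± 0.23. The only other measured neutrophil marker, S100a9, gave -0.25 ± 0.48. Hmox1, haem oxygenase, was 25.54 to 61.76 CPM against 12.01 to 31.99 CPM (0.92 ± 0.20). Of 9 measured retinoid genes 4 were at least 1.5-fold higher and 3 had ratios below 0, with a median of 0.23; Rdh12 and Cyp26b1 gave 1.17 ± 0.28 and 1.11 ± 0.29. The summed level of the 12 listed retinoid genes had a median of 517 CPM in keratin-rich and 529.7 CPM in keratin-poor libraries. In the other direction, Jchain, the joining chain of IgA and IgM, was 41.7 to 80.9 CPM in keratin-rich and 59.5 to 133 CPM in keratin-poor libraries (-0.83 ± 0.19), and Ccl11, eotaxin, gave -0.60 ± 0.17. The groups overlapped for each gene, and no test was made of these ratios.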
